A study of Saccharomyces cerevisiae with 46 samples.

Results

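The proteasome genes of budding yeast were followed in 34 libraries of cells that carried a reporter plasmid or a plasmid without a reporter. Members were all genes of the count table whose R64 locus tag has the symbol PRE1 to PRE10, PUP1 to PUP3, SCL1, RPT1 to RPT6, or RPN and a number, which gave 34 of the 5696 host features. Of these, 32 encode subunits, 14 of the core particle and 18 of the regulatory particle. RPN14 encodes a chaperone of assembly and not a subunit. RPN4 encodes the transcription factor that drives the subunit genes and is given beside them. SEM1, which encodes a small lid subunit, lies outside these names and is counted with the associated factors below.

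The cells were BY4741, a MATa laboratory strain, grown in synthetic medium without uracil at 30 °C for 4 h to an OD600 of 0.7. Reporter cells carried mCherry on a low copy plasmid in 1 of 3 contexts, named by promoter and terminator: pTSA1-tTSA1 (10 libraries), pPGK1-tRPS3 (10 libraries) and pRPS3-tRPS3 (12 libraries). Each context had an unmodified terminator and 4 modified ones (modNNN, modNTN, modNAA and modHTH), in which 3 sites of 9 bp held random sequence or short motifs. Each construct had 2 libraries, except modNNN in pRPS3-tRPS3, which had 4. POT1-ccdB, the plasmid without the reporter, had 2 libraries. All groups share the strain, the medium and the growth. The labels do not say whether replicates came from separate cultures, so p-values measure the spread between these libraries, and they give no day or batch of growth, so the plasmid and the occasion on which each context was grown and sequenced cannot be told apart.

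The 26S proteasome degrades proteins that carry ubiquitin chains. Its core particle is a barrel of stacked alpha and beta rings, with the proteolytic sites inside the beta rings. The regulatory particle caps the barrel with a ring of ATPases that unfold substrates, a base that receives ubiquitin and a lid that removes it. In Saccharomyces cerevisiae, Rpn4 binds a short promoter element, the proteasome-associated control element, before most subunit genes, and Rpn4 is itself a short-lived substrate of the proteasome, which makes a feedback loop.

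QuantSeq REV libraries read each transcript from its 3′ end, so counts do not scale with gene length, and levels are given as CPM, counts relative to the library total scaled by edgeR's TMM factors. Library totals ran from 1013603 to 3849179 counts. MET17, deleted in BY4741, was at 0 in all 34 libraries and LEU2 in 30 of them, while HIS3, whose deletion in this strain leaves the 3′ end, had 65.7 to 158 CPM and so checks nothing. The MATa genes STE2, MFA1, MFA2, BAR1 and STE6 summed to between 2028 and 3394 CPM, against 12.5 to 32.7 CPM for the MATalpha genes STE3, MF(ALPHA)1, MF(ALPHA)2 and SAG1. mCherry had a median of 2505 CPM in pTSA1-tTSA1, 7697 CPM in pPGK1-tRPS3 and 3701 CPM in pRPS3-tRPS3.

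The element that Rpn4 binds, GGTGGCAAA, was searched on both strands from 250 bases before to 50 bases after each start codon in the R64 RefSeq genome. It stood exactly before 27 of the 32 subunit genes (84.4%), against 72 of all 6021 protein-coding genes (1.2%). The windows below are shown because they belong to the subunits whose levels are described next. Each reads 5′ to 3′ along the strand of its gene, with the 9 bases of the element in capitals and 10 bases on either side in lower case. TTTGCCACC is the element on the opposite strand.
PRE2 at chrXVI:732184-732212, plus strand: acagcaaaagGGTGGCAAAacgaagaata
PRE1 at chrV:177683-177711, plus strand: aaatctttacGGTGGCAAAaaataaagaa
RPN11 at chrVI:153259-153287, plus strand: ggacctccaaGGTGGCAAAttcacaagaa
RPN7 at chrXVI:742290-742318, plus strand: ataagttaagTTTGCCACCcattgaggat
RPN3 at chrV:196843-196871, plus strand: acgaaaaacaTTTGCCACCcaagaaagag
RPT4 at chrXV:813802-813830, minus strand: aatagtggaaTTTGCCACCgaagggaaag
PRE4 at chrVI:249959-249987, minus strand: tggtttagaaTTTGCCACCttaaatacgt

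The 5 subunit genes without an exact match each held a copy that differs by 1 base. PRE5, PUP1 and RPN8 carried the substitution G1A and RPN13 and RPN10 carried A7G, where the position is counted from the first base of GGTGGCAAA, the base of the element comes first and that of the site last. Of these, RPN10 has its copy on the opposite strand. The copies of PRE5 and RPN13, which are described below, read along the gene as follows.
PRE5 at chrXIII:901552-901580, plus strand: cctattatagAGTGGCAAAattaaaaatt
RPN13 at chrXII:965656-965684, minus strand: ttattcgcgaGGTGGCGAAagctttgcta
With 1 mismatch allowed, all 32 subunit genes held the element, as did 454 of the 6021 protein-coding genes (7.54%). RPN4 and RPN14 held no copy with up to 1 mismatch in this window. A match describes letters and not a bound site.

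The exact copies began between 183 and 84 bases before the start codon, with a median of 120 bases. They lay on the strand of the gene in 19 promoters and on the opposite strand in 8. Alpha ring, beta ring, ATPase, base and lid genes were all among them, and their genes lie on 12 chromosomes.

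**Figure D1:**
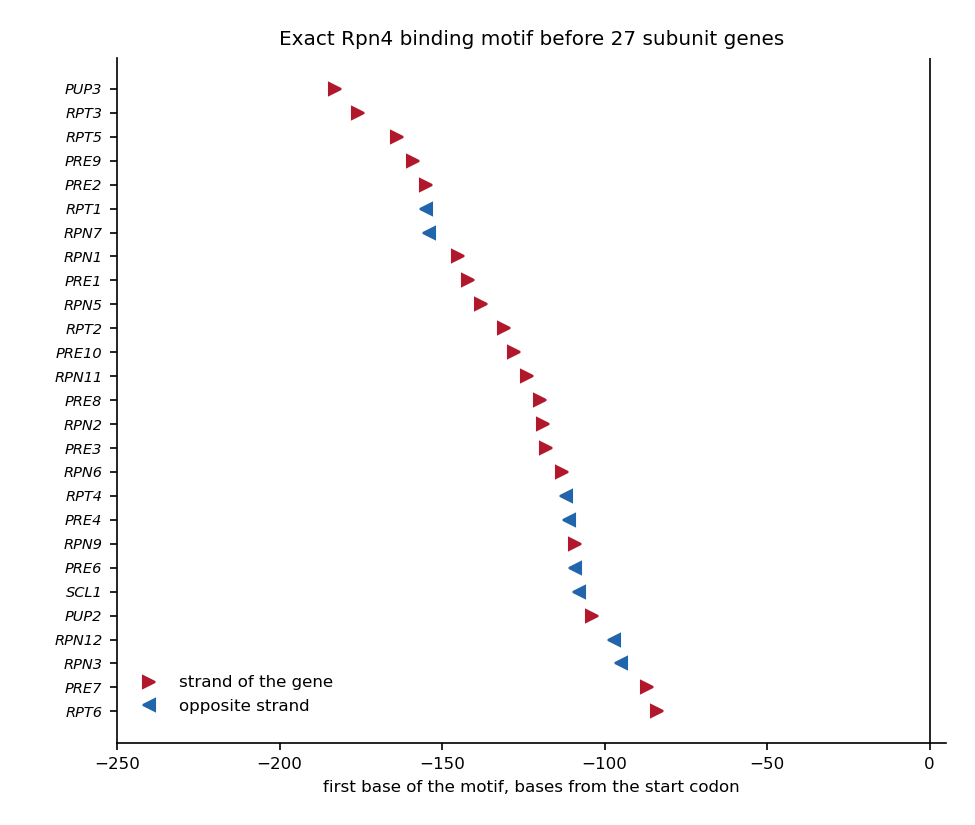
Position of the exact Rpn4 binding element before 27 subunit genes, 1 row per gene; the horizontal axis gives the first base of the element in bases from the start codon, and the colour and direction of the triangle give the strand. All 27 lie between 183 and 84 bases before the start codon, 19 on the strand of the gene and 8 on the other.

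The subunit transcripts differed in level and varied little between replicates. Mean levels over the 34 libraries ran from 401 CPM for PRE3, the beta subunit with the caspase-like site, to 65.8 CPM for RPN3, a lid subunit, and 4.06 CPM for RPT1, an ATPase. RPN1, the base subunit that docks ubiquitin shuttle proteins, and RPN2, its partner in the base, averaged 398 CPM each. RPN4 averaged 56.1 CPM. Together the 32 subunits took 0.593% to 0.803% of a library's TMM-scaled total, which is not the share of its raw counts.

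RPT1 and RPN14 stood apart from the rest by their low counts. RPT1 had 3 to 21 counts per library, and RPN14 had 0 to 12 counts, with 2 libraries at 0. In the deposited annotation, 482 of the last 500 nt of the RPT1 transcript overlap the transcript YKL145W-A on the same strand, which was at 0 in all 34 libraries. For RPN14, 365 of the last 500 nt overlap COG7 on the same strand, which had 35 to 113 counts. How the authors assigned reads in overlaps is not given in the sources used here, and the part of the overlap in these low values was not tested. Of the 34 genes, 33 passed the filter on low counts and RPN14 did not, so nothing below rests on it.

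Between replicate libraries of the same construct, the standard deviation on the log2 scale had a median of 0.14 over the subunits and 0.23 over the 5142 host genes tested. It was below the median of all genes for 27 of the 32 subunits. Genes were not matched by level, and RPT1, the subunit with the fewest counts, had 0.44. Whether the subunits vary less than other genes of their level was not tested. RPT5, an ATPase of the base, had 0.05, the lowest of all genes tested. RPN3 was at the other end with 0.77, and RPN4 had 0.31.

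The summed subunits had 5977 to 6987 CPM in pTSA1-tTSA1 (median 6484), 6383 to 8028 CPM in pPGK1-tRPS3 (median 7339) and 5928 to 6739 CPM in pRPS3-tRPS3 (median 6390), and 6052 and 6839 CPM with POT1-ccdB. Of the 10 pPGK1-tRPS3 libraries, 7 lay above every pRPS3-tRPS3 library and above every pTSA1-tTSA1 library, and the other 3 lay among them. The highest library of the series had 1.35-fold the sum of the lowest. For RPN4 alone that ratio was 3.19.

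**Figure D2:**
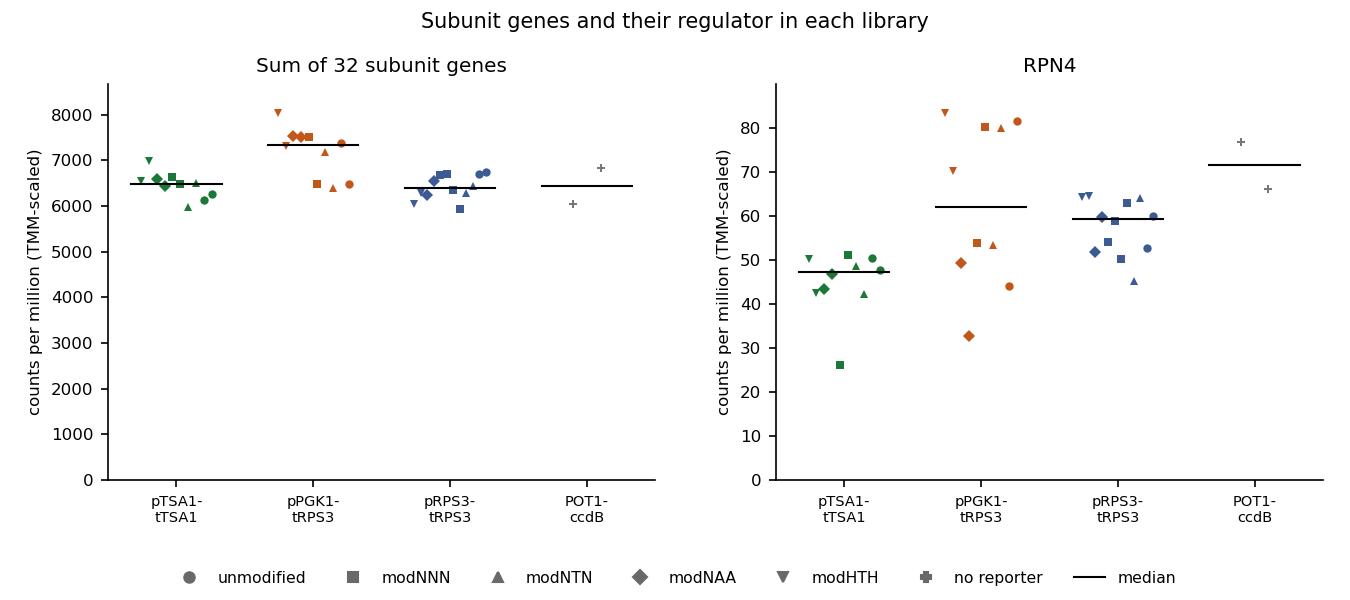
Summed CPM of the 32 subunit genes (left) and CPM of RPN4 (right), 1 point per library, by context; the symbol gives the terminator and the bar the median. The pPGK1-tRPS3 libraries have the highest median sum, 7339 CPM, and RPN4 is lowest in pTSA1-tTSA1, with a median of 47.1 CPM.

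The first comparison keeps the terminator of RPS3, a ribosomal protein gene, and puts the promoter of PGK1, a glycolytic gene, before mCherry in place of that of RPS3. In pPGK1-tRPS3 cells 15 of the 32 subunit genes were higher than in pRPS3-tRPS3 cells and 2 were lower, at an adjusted p under 0.05 in edgeR's quasi-likelihood test. Among all 5142 genes 38.3% were called, 17.7% as higher and 20.6% as lower. The median log2 fold change was 0.15 over the subunits and 0.01 over all genes. The changes were small, with 1.34-fold for the largest rise. Both comparisons with pRPS3-tRPS3 use the same 12 libraries.

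The regulatory particle held 11 of the 15 higher genes. In the ATPase ring 4 of 6 were higher, RPT4 (log2 fold change 0.31 ± 0.09 SE), RPT6 (0.28 ± 0.06), RPT2 (0.23 ± 0.06) and RPT3 (0.20 ± 0.06). In the rest of the base 3 of 4 were higher: RPN1 (0.28 ± 0.09), RPN13, a ubiquitin receptor (0.25 ± 0.05), and RPN2 (0.20 ± 0.07). RPN10, the other dedicated ubiquitin receptor, had -0.03 ± 0.09. In the lid 4 of 8 were higher, RPN7 (0.42 ± 0.06), RPN6 (0.28 ± 0.05), RPN5 (0.23 ± 0.06) and RPN8 (0.17 ± 0.07), and 1 was lower. RPN11, the lid enzyme that cuts ubiquitin chains from substrates, had -0.10 ± 0.07.

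In the core particle 4 of 14 genes were higher and 1 was lower. PRE2, whose beta subunit carries the chymotrypsin-like site, had 0.34 ± 0.06, PRE10 0.27 ± 0.07, SCL1 0.18 ± 0.05 and PRE1 0.15 ± 0.05. PUP1 and PRE3, which hold the other proteolytic sites, had 0.05 ± 0.06 and 0.15 ± 0.07 and did not pass the test.

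RPN7, a lid subunit, had 279 to 381 CPM in pPGK1-tRPS3 (median 329), against 213 to 292 CPM in pRPS3-tRPS3 (median 243). All 10 pPGK1-tRPS3 libraries lay above the pRPS3-tRPS3 median and 7 lay above every pRPS3-tRPS3 library. The fold change was 1.34, at an adjusted p of 8.9e-06. RPN7 was also higher at all 5 terminators when construct means were compared, by 0.24 to 0.61 on the log2 scale.

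PRE2 had 276 to 444 CPM in pPGK1-tRPS3 (median 344), against 236 to 310 CPM in pRPS3-tRPS3 (median 277), with an adjusted p of 0.00011. RPT4 had 89.3 to 153 CPM in pPGK1-tRPS3 (median 119), against 64.3 to 118 CPM in pRPS3-tRPS3 (median 97.4), with an adjusted p of 0.0093. The groups overlapped for both genes, with 8 of the 10 pPGK1-tRPS3 libraries above every pRPS3-tRPS3 library for PRE2 and 6 of 10 for RPT4. PRE1, a beta subunit, had 250 to 341 CPM in pPGK1-tRPS3 (median 293), against 246 to 315 CPM in pRPS3-tRPS3 (median 268), with an adjusted p of 0.028. Its groups overlapped over most of their range, and its call was lost when any of 8 single libraries was left out, replicate 1 of modNNN, modNTN, modNAA or modHTH in pPGK1-tRPS3, and replicate 1 of the unmodified construct or replicate 2 of modNAA, modHTH or modNTN in pRPS3-tRPS3.

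Both genes that fell had other patterns. RPN3 had 14.9 to 61.8 CPM in pPGK1-tRPS3 (median 35.9), against 40.6 to 143 CPM in pRPS3-tRPS3 (median 84.2), a log2 fold change of -1.27 ± 0.29 with an adjusted p of 0.0010. Of the 10 pPGK1-tRPS3 libraries, 8 lay below every pRPS3-tRPS3 library. PRE4, a beta subunit, had 47.7 to 93.5 CPM in pPGK1-tRPS3 (median 71.1), against 75.0 to 117 CPM in pRPS3-tRPS3 (median 92.8), a log2 fold change of -0.38 ± 0.10 with an adjusted p of 0.0034. For both genes the lowest library of all in pPGK1-tRPS3 was replicate 2 of modNAA. That library had the largest TMM factor of the series, 1.31, which lowers every CPM in it. The part of scaling in these low values was not tested. Both genes have the exact element in their promoters.

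RPN4 itself had 32.8 to 83.3 CPM in pPGK1-tRPS3 (median 62.0), against 45.1 to 64.5 CPM in pRPS3-tRPS3 (median 59.2). Of the 10 pPGK1-tRPS3 libraries, 5 lay above every pRPS3-tRPS3 library and 2 lay below every one. The log2 fold change was 0.08 ± 0.12 with an adjusted p of 0.62, and it was -0.02 when the second library of pPGK1-tRPS3 with the unmodified terminator was left out.

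The 27 subunits with the exact element included 13 higher and 2 lower genes, and the 5 without it included 2 higher and 0 lower, RPN13 and RPN8. The median log2 fold change was 0.15 with the exact element and 0.05 without it. Of the 45 other genes with the exact element, 38 were tested, and 11 were higher and 5 lower in pPGK1-tRPS3. As both strands were searched, a site between neighbouring genes that point apart can count for each. Some of the 45, such as NOP14 beside RPN5, are neighbours of subunit genes, and these were not set apart. Over all genes tested, 17.7% were higher and 20.6% lower. Whether the share differs between these lists was not tested.

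The contexts were also compared at matched terminators. On construct means, 12 of the 32 subunits were higher in pPGK1-tRPS3 at all 5 terminators and 1, RPN3, was lower at all 5. Among all 5142 genes, 15.7% were higher at all 5 and 17.4% were lower. The sum of the subunits was higher at all 5, by 0.05 to 0.31 on the log2 scale. The smallest difference was at the unmodified terminator, with 6929 ± 623 CPM in pPGK1-tRPS3 and 6716 ± 32.3 CPM in pRPS3-tRPS3 (SD, n = 2 each). The largest was at modHTH, with 7667 ± 509 CPM in pPGK1-tRPS3 and 6168 ± 177 CPM in pRPS3-tRPS3 (SD, n = 2 each).

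The count of higher subunits depended on scaling and on the libraries. With library totals in place of TMM, the median of all genes moved to 0.18 and 25 subunits were higher, while the subunit median relative to that of all genes was 0.14 under both scalings. With only the libraries numbered 1 the count was 10, and with only those numbered 2 it was 3, where RPT4 had a log2 fold change of 0.01. These fits have fewer libraries and a single coefficient per context, not per plasmid group. Differences between terminators thus enter their error, and the counts differ from the main one in more than the replicate number. At every terminator, replicate 1 had a higher subunit sum than replicate 2 in pPGK1-tRPS3 and a lower one in pRPS3-tRPS3.

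**Figure D3:**
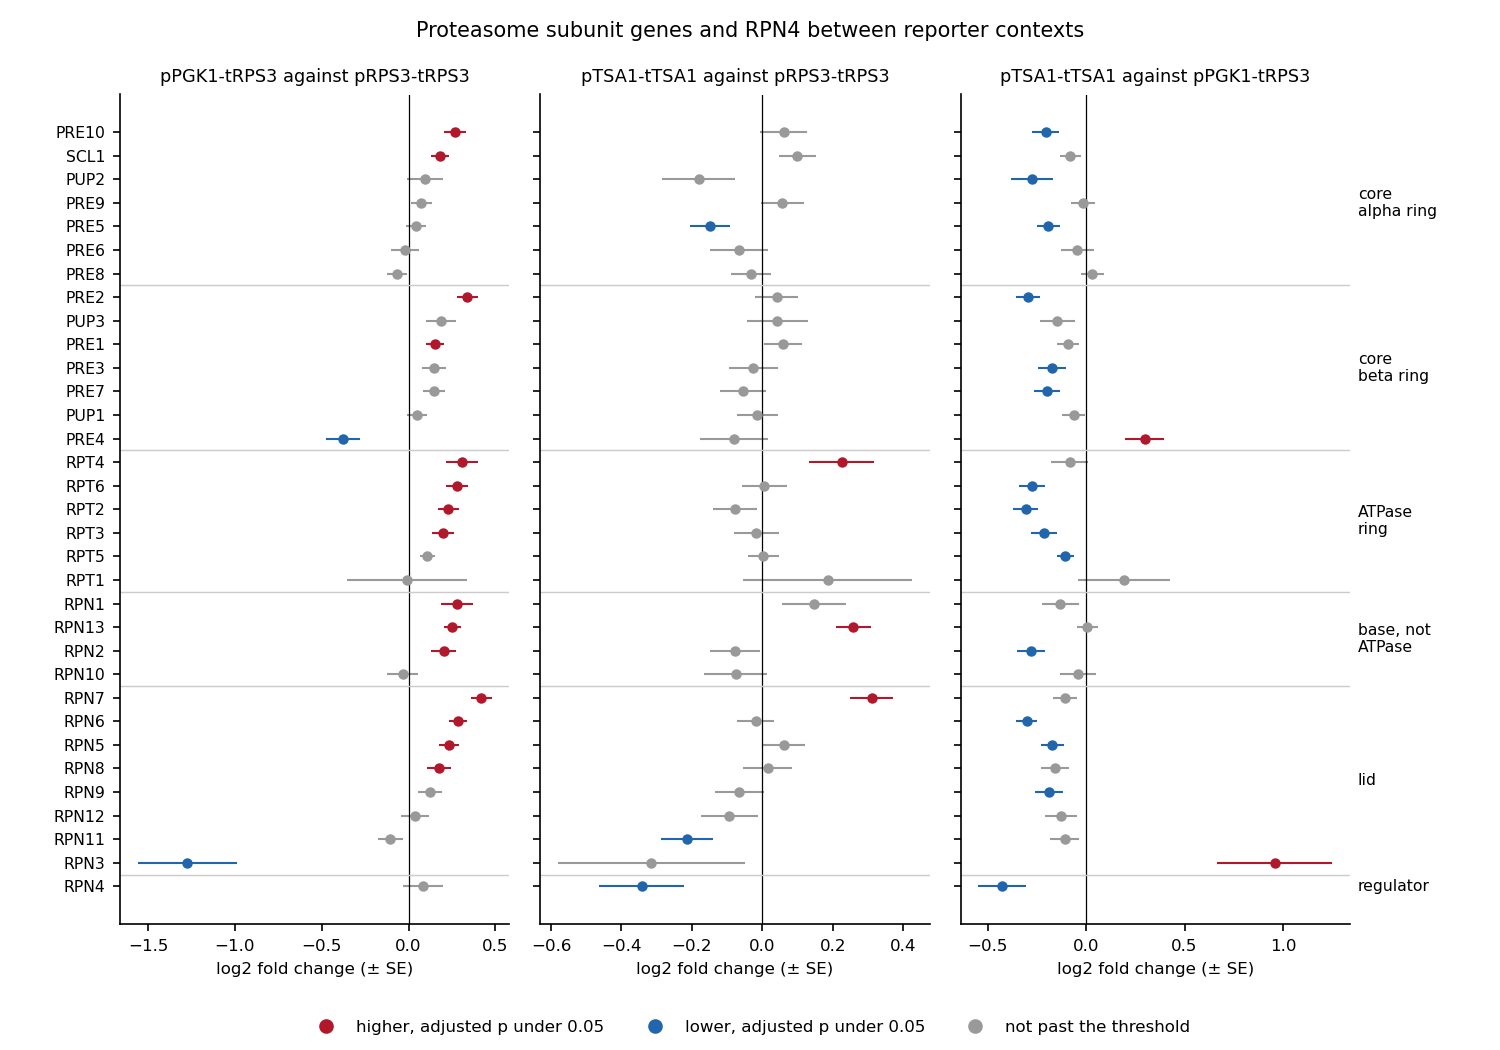
Log2 fold change with its SE for the 32 subunits and RPN4, grouped by their place in the proteasome, in 3 comparisons of contexts; colours mark genes higher or lower at an adjusted p under 0.05, and the 3 horizontal scales differ. Most subunits lie to the right of 0 for pPGK1-tRPS3 against pRPS3-tRPS3 and to the left for pTSA1-tTSA1 against pPGK1-tRPS3. RPN3 and PRE4 lie on the other side in both and are called there, and RPT1 and PRE8 do so without a call.

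Within pPGK1-tRPS3 the replicate libraries did not agree on the sum or on RPN4. Replicate 2 of the unmodified construct, of modNNN and of modNTN had sums of 6489, 6476 and 6383 CPM, and these are the 3 libraries that lay among the other contexts. Replicate 1 of the same constructs had sums of 7370, 7514 and 7176 CPM. Replicate 1 also had the higher sum with modNAA and modHTH, and so at all 5 terminators. RPN4 stood in the opposite order, with 81.5, 80.1 and 79.8 CPM in replicate 2 and 44.2, 53.8 and 53.3 CPM in replicate 1.

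The modHTH and modNAA libraries of pPGK1-tRPS3 did not follow that order. The modHTH libraries had both high sums, 8028 and 7307 CPM, and high RPN4, 83.3 and 70.1 CPM. The modNAA libraries had high sums, 7536 and 7510 CPM, with low RPN4, 49.2 and 32.8 CPM. RPN4 transcript and subunit sum thus stood in no single order over these 10 libraries.

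**Figure D4:**
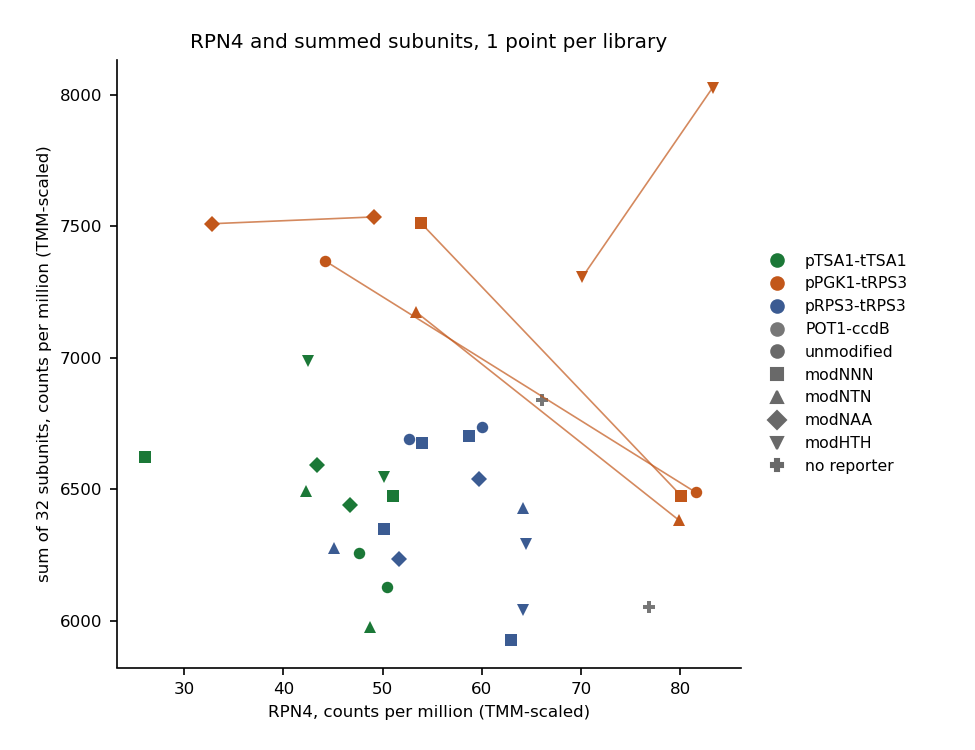
RPN4 (horizontal, CPM) against the sum of the 32 subunits (vertical, CPM), 1 point per library; colour gives the context, symbol the terminator, and lines join replicates in pPGK1-tRPS3. The lines of the unmodified, modNNN and modNTN constructs fall from left to right, down to sums of 6489, 6476 and 6383 CPM at the highest RPN4 values of those pairs, while both modHTH points lie at 70.1 CPM of RPN4 or higher with sums of 7307 and 8028 CPM.

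One axis of variation between replicates, the first principal component of the residuals over all genes, held 25.9% of the variance within groups. It held 84.1% of the replicate variance of RPN3, 74.6% of that of PRE4 and 62.7% of that of RPN4, all 3 with slopes of the same sign. These 3 shares were the largest among the members tested, and the smallest was 0.12%, for RPN6. Of the 32 subunits, 26 had slopes of the opposite sign and 6 had the sign of RPN3, some of them with little variance on the axis. The signs over all genes were not counted, so these numbers have no background. What the axis stands for was not tested. With it as a covariate, 16 subunits were higher and 2 lower in pPGK1-tRPS3 against pRPS3-tRPS3, and RPN3 had -1.22 in log2 fold change. The axis was taken from deviations within plasmid groups of these same libraries. As a covariate it could thus move fold changes little and mainly lower the error, so this fit is no independent check.

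The second comparison sets reporters with both the promoter and terminator of TSA1, a peroxiredoxin gene, against those of RPS3. In pTSA1-tTSA1 cells 3 subunits were higher than in pRPS3-tRPS3 cells and 2 were lower, and the other 27 did not pass the test. Among all genes 47.9% were called, 24.2% as higher and 23.8% as lower. The median log2 fold change was -0.02 over the subunits and 0.01 over all genes.

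RPN7 had 276 to 332 CPM in pTSA1-tTSA1 (median 299.7), against 213 to 292 CPM in pRPS3-tRPS3 (median 243), a log2 fold change of 0.31 ± 0.06 with an adjusted p of 0.00012. RPN13 had 225 to 270 CPM in pTSA1-tTSA1 (median 241), against 178 to 232 CPM in pRPS3-tRPS3 (median 204), a log2 fold change of 0.26 ± 0.05 with an adjusted p of 0.00012. For both genes all 10 pTSA1-tTSA1 libraries lay above the pRPS3-tRPS3 median, and at all 5 terminators the construct mean was higher. RPT4 had 90.3 to 131 CPM in pTSA1-tTSA1 (median 115), against 64.3 to 118 CPM in pRPS3-tRPS3 (median 97.4), a log2 fold change of 0.23 ± 0.09 with an adjusted p of 0.047. That call was lost under DESeq2 and without any of 18 of the 22 single libraries compared, and with the replicate number as a block the adjusted p was 0.092.

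RPN11, the deubiquitinating enzyme of the lid, and PRE5, an alpha ring subunit, were lower in pTSA1-tTSA1. RPN11 had 183 to 243 CPM in pTSA1-tTSA1 (median 213), against 219 to 286 CPM in pRPS3-tRPS3 (median 251), a log2 fold change of -0.21 ± 0.07 with an adjusted p of 0.018. Of the 10 pTSA1-tTSA1 libraries, 7 lay below every pRPS3-tRPS3 library. In fits with a single coefficient per context, the adjusted p of RPN11 was 0.051 with only libraries numbered 1. It was 0.45 with only those numbered 2. PRE5 had 179 to 213 CPM in pTSA1-tTSA1 (median 195), against 166 to 233 CPM in pRPS3-tRPS3 (median 215), a log2 fold change of -0.15 ± 0.06 with an adjusted p of 0.033. Its groups overlapped, and replicate 4 of modNNN in pRPS3-tRPS3 lay below every library of both groups. Its call was lost when any of 8 single libraries was left out, replicate 2 of the unmodified construct or of modNNN or replicate 1 of modHTH or modNTN in pTSA1-tTSA1, and replicate 1 of the unmodified construct, modNAA or modNTN or replicate 2 of modHTH in pRPS3-tRPS3.

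RPN4, the regulator, was lower in pTSA1-tTSA1. It had 26.1 to 51.1 CPM in pTSA1-tTSA1 (median 47.1), against 45.1 to 64.5 CPM in pRPS3-tRPS3 (median 59.2). All 10 pTSA1-tTSA1 libraries lay below the pRPS3-tRPS3 median and 4 lay below every pRPS3-tRPS3 library. The log2 fold change was -0.34 ± 0.12 with an adjusted p of 0.021, and the construct mean was lower at all 5 terminators. Without replicate 2 of modNTN in pRPS3-tRPS3 the adjusted p was 0.068. In fits with a single coefficient per context, it was 0.23 with only libraries numbered 1 and 0.10 with only those numbered 2.

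**Figure D5:**
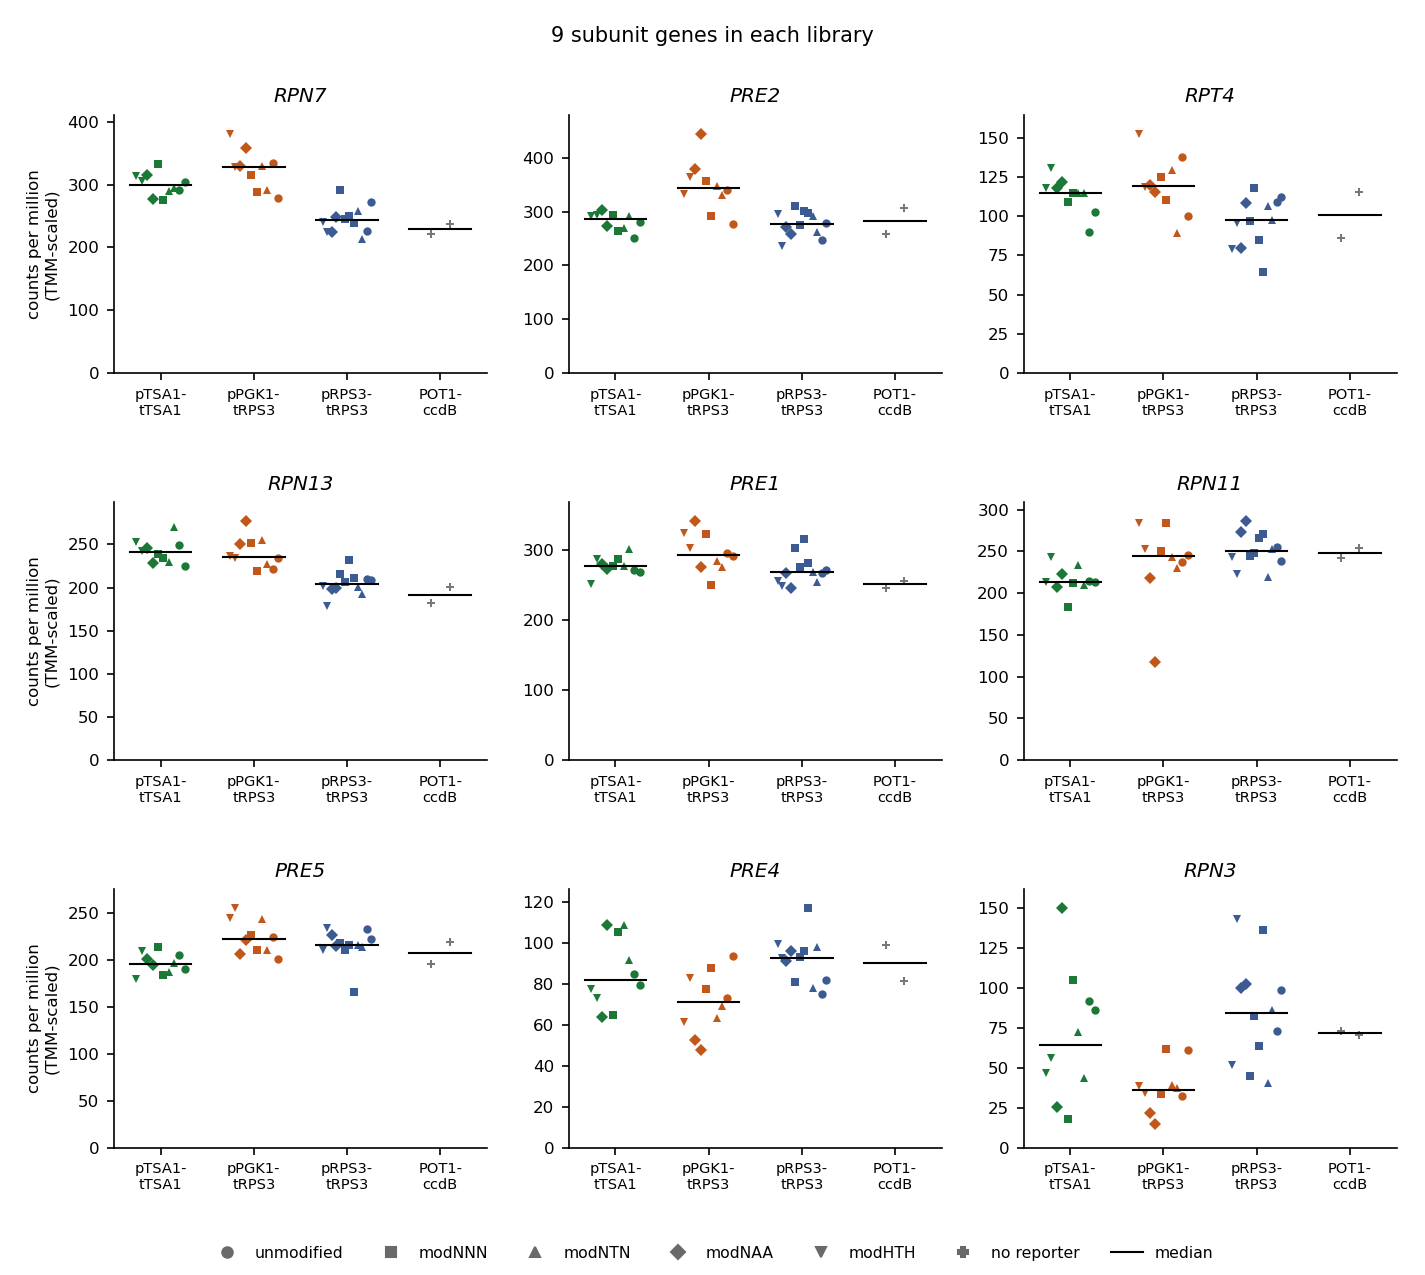
CPM of 9 subunit genes in each library, by context, with the symbol giving the terminator and the bar the median. RPN7 and RPN13 lie higher in both pTSA1-tTSA1 and pPGK1-tRPS3 than in pRPS3-tRPS3, while RPN3 and PRE4 are lowest in pPGK1-tRPS3 and RPN3 is widely spread in every reporter context.

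The third comparison sets the pTSA1-tTSA1 libraries against the pPGK1-tRPS3 libraries, the same libraries as above. In pTSA1-tTSA1 cells 14 subunits were lower than in pPGK1-tRPS3 cells and 2 were higher. Among all genes 61.1% were called, 29% as lower and 32.1% as higher. The median log2 fold change was -0.13 over the subunits and 0.01 over all genes. With library totals in place of TMM the median of all genes was -0.21, and 29 subunits were lower and 1 higher. With only the libraries numbered 1, 20 subunits were lower, and with only those numbered 2, 1 was, in fits with a single coefficient per context. Without replicate 1 of modNTN in pPGK1-tRPS3, 9 were lower.

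RPN6, the lid subunit that clamps the regulatory particle to the core, was the only subunit whose libraries did not overlap, with all 10 pTSA1-tTSA1 libraries below all 10 pPGK1-tRPS3 libraries. Among all 5142 genes, 15.2% did not overlap in this comparison, 7.99% with pTSA1-tTSA1 lower, so 1 of 32 is not a high share. Its log2 fold change was -0.30 ± 0.05 with an adjusted p of 2.6e-05. The other lower genes were RPT2 (-0.31), PRE2 (-0.30), RPN2 (-0.28), PUP2 (-0.28), RPT6 (-0.28), RPT3 (-0.21), PRE10 (-0.21), PRE7 (-0.20), PRE5 (-0.19), RPN9 (-0.19), PRE3 (-0.17), RPN5 (-0.17) and RPT5 (-0.11), given as log2 fold changes. RPN3 (0.96 ± 0.29) and PRE4 (0.30 ± 0.10) were higher, and neither passed the test without replicate 2 of modNNN in pTSA1-tTSA1, and RPN3 alone did without replicate 2 of modNAA in pTSA1-tTSA1.

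RPN4 had 26.1 to 51.1 CPM in pTSA1-tTSA1, against 32.8 to 83.3 CPM in pPGK1-tRPS3. Of the 10 pPGK1-tRPS3 libraries, 7 lay above every pTSA1-tTSA1 library. The log2 fold change was -0.43 ± 0.12 with an adjusted p of 0.0037. At modNAA the construct means stood the other way, with 45.0 ± 2.35 CPM in pTSA1-tTSA1 and 41.0 ± 11.6 CPM in pPGK1-tRPS3 (SD, n = 2 each).

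Against the plasmid without a reporter, the subunits showed 1 called gene. RPN7 had 213 to 381 CPM in the 32 reporter libraries, against 222 and 236 CPM with POT1-ccdB, a log2 fold change of 0.32 ± 0.10 with an adjusted p of 0.042. Among all genes, 4.8% were higher and 7.16% were lower. No subunit was lower in edgeR or in DESeq2, and 4 of the 32 subunits had an unadjusted p under 0.05 in edgeR in either direction. The call of RPN7 was lost when either POT1-ccdB library was left out, and when any of 7 reporter libraries was, replicate 2 of modNAA or replicate 1 of modHTH in pRPS3-tRPS3 and both unmodified, both modHTH and the second modNTN library of pTSA1-tTSA1. RPN4 had 26.1 to 83.3 CPM in the reporter libraries and 76.8 and 66.1 CPM with POT1-ccdB, a log2 fold change of -0.41 ± 0.18 that did not pass the test, with an adjusted p of 0.14.

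The terminator inserts were compared with modNNN over the 3 contexts, 6 libraries against 8. No subunit passed the test with modNTN, modNAA, modHTH or the unmodified terminator, in edgeR or in DESeq2. Among all 5142 genes, 0.0194% were called with modNTN, 0% with modNAA, 0.428% with modHTH and 0.0583% with the unmodified terminator. At an unadjusted p under 0.05 there were 2 subunits with modNTN, 1 with modNAA, 0 with modHTH and 1 with the unmodified terminator. Subunit medians in log2 fold change were -0.05 with modNTN, 0.02 with modNAA, 0.03 with modHTH and -0.03 with the unmodified terminator. RPN4 had 0.04 ± 0.15 with modNTN, -0.21 ± 0.15 with modNAA, 0.19 ± 0.15 with modHTH and 0.04 ± 0.16 with the unmodified terminator.

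Whether a terminator acted differently in pTSA1-tTSA1 or pPGK1-tRPS3 than in pRPS3-tRPS3 was tested with 8 differences of effects. No subunit passed in any of them in edgeR or in DESeq2, and at an unadjusted p under 0.05 there were 0 to 4 subunits per test. Over all genes, 0.117% were called with modHTH, 0.0389% with modNAA, 0.0194% with modNTN and 0.0583% with the unmodified terminator in pPGK1-tRPS3. In pTSA1-tTSA1 they were 0.0389% with modHTH, 0.0194% with modNAA, 0.0583% with modNTN and 0.0389% with the unmodified terminator.

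The wider ubiquitin and proteasome system was read from lists of genes tied to the subunits by function. The counts in pPGK1-tRPS3 against pRPS3-tRPS3 stand beside 17.7% higher and 20.6% lower over all genes. The assembly chaperones lie near these shares, as do the Cdc48 genes among those higher and the ubiquitin system among those lower. No list was tested against these shares. Of 8 chaperones that assemble the proteasome, 2 were higher in pPGK1-tRPS3 against pRPS3-tRPS3, HSM3 (log2 fold change 0.32) and ADD66 (0.22), and 1 was lower, PBA1 (-0.39). Of 8 associated factors, 3 were higher and 0 lower: TMC1, a zinc finger protein that binds the proteasome (0.66), FUB1 (0.29) and UBP6, the deubiquitinase of the base (0.18). SEM1 was not among them. Of 14 genes of the ubiquitin system, 5 were higher, UBI4, the polyubiquitin gene (0.40), DDI1 (0.37), MUB1 (0.36), UBC5 (0.34) and UBR2 (0.31), and 3 were lower, RAD23 (-0.25), RAD6 (-0.24) and RSP5 (-0.23). MUB1 and UBR2 encode the ubiquitin ligase that marks Rpn4 for degradation. Of 5 tested genes of the Cdc48 complex, which pulls ubiquitinated proteins out of their surroundings, UFD1 was higher (0.36).

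The counts of these lists in pTSA1-tTSA1 against pRPS3-tRPS3, which uses the same pRPS3-tRPS3 libraries, stand beside 24.2% higher and 23.8% lower over all genes. The assembly chaperones lie near these shares too, as do the associated factors among those lower, and no list was tested against them. Of the ubiquitin system 0 of 14 were higher and 6 were lower, among them UBI4 (-0.90), UFD2 (-0.37), DDI1 (-0.36) and MUB1 (-0.34). Of the assembly chaperones 2 were higher, POC4 (0.34) and HSM3 (0.19), and 2 lower, NAS2 (-0.31) and ADD66 (-0.26). Of the associated factors SEM1 was higher (0.17), and HUL5, a ubiquitin ligase that extends chains (-0.74), and TMC1 (-0.28) were lower. Of the Cdc48 genes 0 of 5 were higher and 2 were lower, NPL4 (-0.26) and UFD1 (-0.24).

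HSF1, PDR1, PDR3 and YAP1 encode activators known to act on RPN4. Of these 4, 0 passed in pPGK1-tRPS3 against pRPS3-tRPS3 in edgeR, with 1 at an unadjusted p under 0.05. PDR1, an activator of drug resistance genes, was higher in pTSA1-tTSA1 against pRPS3-tRPS3 (0.44), while RPN4 was lower there. Of 14 cytosolic chaperone genes, 8 were higher and 3 lower in pPGK1-tRPS3 against pRPS3-tRPS3, beside 17.7% and 20.6% over all genes. HSP26 (0.80) and HSP82 (0.72) were among the higher ones, and the abundant chaperones SSA2 (-1.56) and SSA1 (-0.88) and the disaggregase HSP104 (-0.55) were lower. SSA1 and SSA2 are near-identical copies. How reads that match both were assigned is not given in the sources used here, and its part in these values was not tested. In pTSA1-tTSA1 against pRPS3-tRPS3, 6 were higher, with AHA1 at 0.64 and YDJ1 at 0.59, and 4 were lower, with HSP104 at -1.31 and HSP42 at -1.18, beside 24.2% and 23.8% over all genes. In both comparisons the lower counts lie near the share over all genes, and no share was tested.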

How the data were processed

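Saccharomyces cerevisiae BY4741 was profiled by QuantSeq REV 3′-end sequencing, per the labels' protocols. The authors deposited read counts per gene without normalization for 34 of the 46 samples of the series, and the other 12 were not analysed here. FastQC, cutadapt, HISAT2, SAMtools, featureCounts and bedtools are named in the submitters' processing notes with R64 and sacCer3, without versions or settings, so strand and overlap settings of the counting are not given in the sources used here. The deposited annotation of 4818 transcripts states no build. Its positions were read on R64, since 4672 of the transcripts matched a RefSeq gene and every one of these spans the ORF that R64 gives.

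The table held 5698 features, 2 of them on the plasmid, and 5550 matched a RefSeq locus tag. The test was edgeR's quasi-likelihood test (edgeR 4.0.16 with limma 3.58.1 in R 4.3.3). All 34 libraries entered a single model with a coefficient for each plasmid group, after filterByExpr and TMM scaling. Of the 5696 host features, 5142 passed the filter, and p-values were adjusted over all of them by Benjamini-Hochberg, with 0.05 as the threshold. SEs come from the fold change and its F statistic. Spread between replicates was taken on log2(CPM + 0.5), with 18 residual degrees of freedom. The code was tested on simulated data. Library totals ran from 1013603 to 3849179 counts, and the spread between libraries, not counting error, was used as the error.

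The members and the gene lists were chosen with earlier results of these data known. Values are given by library range for RPN4 and, in both comparisons with pRPS3-tRPS3, for the 3 members with the largest and the 3 with the smallest log2 fold change among those past the threshold. The promoter search and the reading by matched terminator are descriptions with no test. Alternatives were DESeq2 1.42.0, scaling by library totals alone, a filter of 1 count in any library, a filter of 10 counts in each library, fits of only the compared groups, the replicate number as a block, the first residual component as a covariate, each library left out, and 1 mismatch in the promoter element. Fits with only the libraries numbered 1 or 2, with a single coefficient per context, were added after seeing the data.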

Additional observations from a re-analysis of the deposited data

Results flagged for a closer look

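Within 3 sets of libraries for each of 33 genes (10 libraries of pTSA1-tTSA1, 10 of pPGK1-tRPS3 and the 4 modNNN libraries of pRPS3-tRPS3), 11 of 99 sets held a library that stood far from the others, measured as its gap to the nearest library over the range of the set. For independent libraries of a single group, chance gives about 1 in 20. The genes share the same libraries, and each set of 10 libraries pools different constructs. The 11 of 99 thus cannot be read against that rate.

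RPN4 in replicate 1 of modNNN in pTSA1-tTSA1 had 26.1 CPM, with 42.2 CPM as the nearest value (ratio 0.646). Replicate 1 of modNTN in pTSA1-tTSA1 was low for 3 subunits of the regulatory particle, RPN1 at 295 CPM with 385 CPM nearest (0.547), RPN2 at 291 CPM with 352 CPM nearest (0.540) and RPN8 at 197 CPM with 247 CPM nearest (0.559). RPT2 was high in replicate 2 of modHTH in pTSA1-tTSA1, at 420.2 CPM with 373 CPM nearest (0.473).

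In pPGK1-tRPS3, replicate 2 of modNAA was low for RPN11, at 118 CPM with 219 CPM nearest (0.606), and for PUP1, at 155 CPM with 187 CPM nearest (0.516). Replicate 2 of modNTN was low for RPN12, at 62.5 CPM with 79.5 CPM nearest (0.479). In pRPS3-tRPS3, replicate 4 of modNNN was high for PRE3, at 465 CPM with 366 CPM nearest (0.872), and low for PRE5, at 166 CPM with 210.4 CPM nearest (0.865), and for RPT2, at 281 CPM with 383 CPM nearest (0.856). The TMM factor was the largest of the series, 1.31, in replicate 2 of modNAA in pPGK1-tRPS3. It was the smallest, 0.843, in replicate 4 of modNNN in pRPS3-tRPS3. A larger factor lowers every CPM of a library. The part of scaling in these flagged values was not tested.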

How the results depend on the processing

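Counts of subunits past the threshold depended most on scaling and on the replicate numbers. With library totals, 25 were higher in pPGK1-tRPS3 against pRPS3-tRPS3, 1 was higher and 29 were lower in pTSA1-tTSA1 against pPGK1-tRPS3, and 0 were higher against POT1-ccdB. With totals the split of calls over all genes also moved, to 77.5% higher from TMM's 46.1% in pPGK1-tRPS3 against pRPS3-tRPS3, and to 28.0% from 52.5% in pTSA1-tTSA1 against pPGK1-tRPS3. Fits with only libraries numbered 1, added after seeing the data, gave 0 lower in pTSA1-tTSA1 and 10 higher and 0 lower in pPGK1-tRPS3 against pRPS3-tRPS3, and 0 higher in pTSA1-tTSA1 against pPGK1-tRPS3. Those with only libraries numbered 2 gave 0 lower in pTSA1-tTSA1 and 3 higher and 1 lower in pPGK1-tRPS3 against pRPS3-tRPS3, and 1 higher and 1 lower in pTSA1-tTSA1 against pPGK1-tRPS3. Each such fit has fewer libraries and a single coefficient per context, so differences between terminators enter its error. The causes of the other changes were not tested.

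With the residual component as a covariate, 3 subunits were higher against POT1-ccdB and 5 calls appeared among the 8 differences of terminator effects, where 0 stood before. The component comes from the residuals of these same libraries, so its use lowers the error by construction and the added calls lend no support. With the replicate number as a block, 2 subunits were higher against POT1-ccdB, and the other counts were within 1.5 times. Between plasmid groups, the deviations of replicate 1 from the group mean correlated from -0.393 to 0.597, with a median of 0.02. Of 120 pairs, 42 were over 0.1. The labels do not say whether libraries were paired by number. Within contexts the medians were -0.0111 in pTSA1-tTSA1, 0.132 in pPGK1-tRPS3 and 0.17 in pRPS3-tRPS3. Of 10 pairs in each context, 3, 6 and 6 were over 0.1, in the same order. In pPGK1-tRPS3 the subunit sum was higher in replicate 1 than in replicate 2 at all 5 terminators. In pRPS3-tRPS3 the order of these 2 replicates was the reverse at all 5, and in pTSA1-tTSA1 it was mixed. Whether number and library are linked in these contexts was not tested further.

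With each library left out in turn, subunits higher ranged from 11 to 17 and lower from 2 to 3 in pPGK1-tRPS3 against pRPS3-tRPS3. They ranged from 2 to 3 higher and 1 to 3 lower in pTSA1-tTSA1 against pRPS3-tRPS3, and from 0 to 2 higher and 9 to 15 lower in pTSA1-tTSA1 against pPGK1-tRPS3. Against POT1-ccdB 0 to 3 were higher. With modNAA and among the 8 differences of terminator effects 0 to 1 were called, in both cases 1 without replicate 1 of modNAA in pPGK1-tRPS3. The RPN4 difference between pPGK1-tRPS3 and pRPS3-tRPS3 ranged from -0.018 to 0.16, with the negative value without replicate 2 of the unmodified construct, and with library totals it was 0.25 at an adjusted p of 0.0499. With 1 mismatch allowed, the promoter element stood before 100% of subunit genes and 7.54% of all protein-coding genes. RPT1, with at most 21 counts per library, could show only large changes at this depth.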
